A study of Mus musculus with 6 samples.

Results

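The genes described here encode enzymes that build and cap the sugar chains of mucins and glycolipids in the mouse colon. They were taken from the array annotation by symbol: names that begin with Galnt, B3gnt, B3galt, B4galt, Gcnt, Fut, St3gal, St6gal, St8sia or Chst followed by a number, or with St6galnac. The rule gave 83 of the 18193 genes on the array, in 11 families, and no measured value entered it other than the choice of the brightest probe set for each gene. The symbol rule also takes in enzymes that act mainly elsewhere, such as Fut8 on N-glycans and B3galt6, B4galt7 and most Chst genes on proteoglycan chains, and it takes in Fut4-ps1, a pseudogene by its name. The study compared the proximal with the distal part of the large intestine in untreated female C57BL/6J mice. It holds 3 libraries labelled proximal and 3 labelled distal, each total RNA of tissue on 1 array, and per the design text 3 animals supplied both regions. All 6 libraries share strain, sex and lack of treatment, and no age is stated. Whole tissue was used, so fewer cells of a type and less RNA per cell cannot be told apart in any value below.

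An O-linked mucin chain starts when a Galnt enzyme places N-acetylgalactosamine on serine or threonine. Galactose, or N-acetylglucosamine from the Gcnt and B3gnt enzymes, then forms a core, and the B3gnt, B4galt and B3galt enzymes lengthen it. Fucose, sialic acid or sulfate closes the chain, added by the Fut, St3gal, St6galnac and Chst enzymes. On lipids, St3gal5 opens the ganglioside series and B3gnt5 opens the lacto and neolacto series. In the gut these chain ends give mucus its charge and serve as footholds and food for bacteria, and they are known to differ along the colon.

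The libraries labelled proximal 1 and distal 3 went against their labels in these genes as they did across the array. Over all 18193 genes, proximal 1 correlated at r = 0.993 with distal 1 and r = 0.977 with proximal 2, and distal 3 at r = 0.996 with proximal 2 and r = 0.974 with distal 1. Genes are not independent replicates, so these r values only describe the libraries. Each result is therefore given for the 6 libraries as labelled and for the 4 that remain without that pair, and no library was given another label. That the samples hold intestinal epithelium, though not which region they come from, could be checked with markers (Epcam, Cdh1, Vil1, Krt8, Krt18, Krt19, Cdx1 and Cdx2), whose mean log2 signal lay between 13.8 and 14 in all 6 libraries. The 6 measured pancreatic acinar genes stood at a mean of 12.50 in proximal 1 and 12.48 in distal 1, against 6.46 to 6.77 in the other libraries.

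Promoter sequence is shown for 4 of the 10 leading genes (those with a difference of at least 1 below) that have an entry in the RefSeq table used here (assembly GRCm38.p6), because B3gnt7, B3gnt5 and St3gal6 were high in the same libraries and St3gal5 was high in the others. Of the 83 genes, 62 have an entry. Each stretch below is the 250 bases before the annotated start, 5′ to 3′ on the gene's strand: B3gnt7 at chr1:86302971-86303220 on the plus strand, B3gnt5 at chr16:19759984-19760233 on the plus strand, St3gal6 at chr16:58524254-58524503 on the minus strand for the more upstream of its 2 listed starts, and St3gal5 at chr6:72097358-72097607 on the plus strand. Capitals mark AGATAA, the site read by GATA factors, and GGGCGG, the GC box, on either strand.
B3gnt7: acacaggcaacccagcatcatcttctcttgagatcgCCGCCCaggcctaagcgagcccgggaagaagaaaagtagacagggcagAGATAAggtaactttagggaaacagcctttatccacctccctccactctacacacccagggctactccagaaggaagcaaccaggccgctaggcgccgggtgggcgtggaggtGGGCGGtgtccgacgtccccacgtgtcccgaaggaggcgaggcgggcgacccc
B3gnt5: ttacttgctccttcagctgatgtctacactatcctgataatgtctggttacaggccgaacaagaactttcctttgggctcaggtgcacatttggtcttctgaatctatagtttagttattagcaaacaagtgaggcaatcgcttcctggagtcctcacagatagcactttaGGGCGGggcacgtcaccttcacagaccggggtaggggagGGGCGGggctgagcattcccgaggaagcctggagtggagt
St3gal6: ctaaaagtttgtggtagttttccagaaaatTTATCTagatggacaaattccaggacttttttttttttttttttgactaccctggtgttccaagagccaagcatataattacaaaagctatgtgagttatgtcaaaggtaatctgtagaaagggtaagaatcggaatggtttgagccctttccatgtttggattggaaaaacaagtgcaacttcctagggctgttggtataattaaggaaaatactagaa
St3gal5: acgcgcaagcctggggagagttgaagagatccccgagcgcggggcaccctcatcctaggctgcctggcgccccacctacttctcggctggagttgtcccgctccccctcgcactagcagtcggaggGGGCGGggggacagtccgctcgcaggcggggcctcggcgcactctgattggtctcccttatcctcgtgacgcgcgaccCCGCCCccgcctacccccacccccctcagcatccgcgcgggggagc

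The St3gal6 stretch had a GC content of 34.8%, against 51.2% for B3gnt5, 61.6% for B3gnt7 and 71.6% for St3gal5. AGATAA occurred once each in B3gnt7, with its first base 166 bases before the start, and in St3gal6, 220 bases before it. Among all 32851 stretches of the same length in the table, 9.99% hold AGATAA on either strand and 32.7% hold GGGCGG. Among the 82 stretches of the sugar chain genes, 45 held the GC box (54.9%) and 5 held AGATAA (6.1%). In the 15 stretches of the 10 leading genes these counts were 7 and 2. The letters TTTATNG, a core read by CDX and HOX13 proteins, occurred in 9.81% of all stretches, in 3 of the 82 (3.66%) and in 0 of the 15. TATAAA, the TATA box, occurred in 12.4% of all stretches, in 1 of the 82 (1.22%) and in 1 of the 15. All motifs were searched on both strands, and TATAAA can fall inside a match to the CDX and HOX13 letters read on the other strand. A match describes letters only, and which start the colon uses was not measured.

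As labelled, none of these genes passed the test of distal against proximal colon. In the fit of 6 libraries limma called 0 of the 83 genes at an adjusted p of 0.05, where the share called among all genes was 0%. Their smallest adjusted p was 0.824. At an unadjusted p of 0.05 there were 5 of 83 (6.02%), against 3.05% of all genes. These were Chst10 (difference 0.48, distal minus proximal) and Galnt9 (0.28), higher in distal libraries, and St8sia6 (-0.40), B3galt6 (-0.34) and Galnt3 (-0.34), lower in distal libraries. For 7 of 83 genes (8.43%) all values of one label lay above all values of the other, close to the 7.33% of all genes. B4galt1 (0.18) and Chst2 (0.28) were the ones of these 7 beyond the 5 just named. None of the 7 reached a difference of 1 on the log2 scale.

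Without proximal 1 and distal 3, 27 of the 83 genes (32.5%) passed limma at an adjusted p of 0.05, against 19.2% of all genes. Of these, 19 (22.9%) were higher in distal libraries, where 7.71% of all genes were, and 8 (9.64%) were lower, where 11.5% of all genes were. With quantile normalization the split was 21 higher and 4 lower, and with median centring 22 and 4. With the mean of all probe sets it was 19 and 10. With each probe set tested on its own, 20 of the 83 genes had a higher call and 17 a lower call. Over all genes those counts were 2315 and 3209. In the fit of brightest probe sets, 14 of the 83 passed with a difference of at least 1 (16.9%, against 6.26% of all genes), 10 higher and 4 lower. The median difference over the 83 was 0.065, against -0.045 over all genes. Because the choice of libraries rested on their profiles, these p-values overstate the evidence and describe 2 libraries of each label. All differences below are the mean of distal 1 and 2 minus the mean of proximal 2 and 3 on the log2 scale, unless the 6 libraries are named. Counts per family and per list below are to be read against the shares of all genes given here. In 14 of the 83 genes all 6 values lay under 6.54, the lower quartile of all gene values. In that range a small difference need not mean equal RNA. Of these 14, 2 passed, St6gal2 and Chst10. The rest were B3galt2, B3gnt4, B4galt2, Chst3, Chst7, Chst9, Fut1, Galnt9, Galnt13, Galnt14, Gcnt7 and St8sia2.

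**Figure D1:**
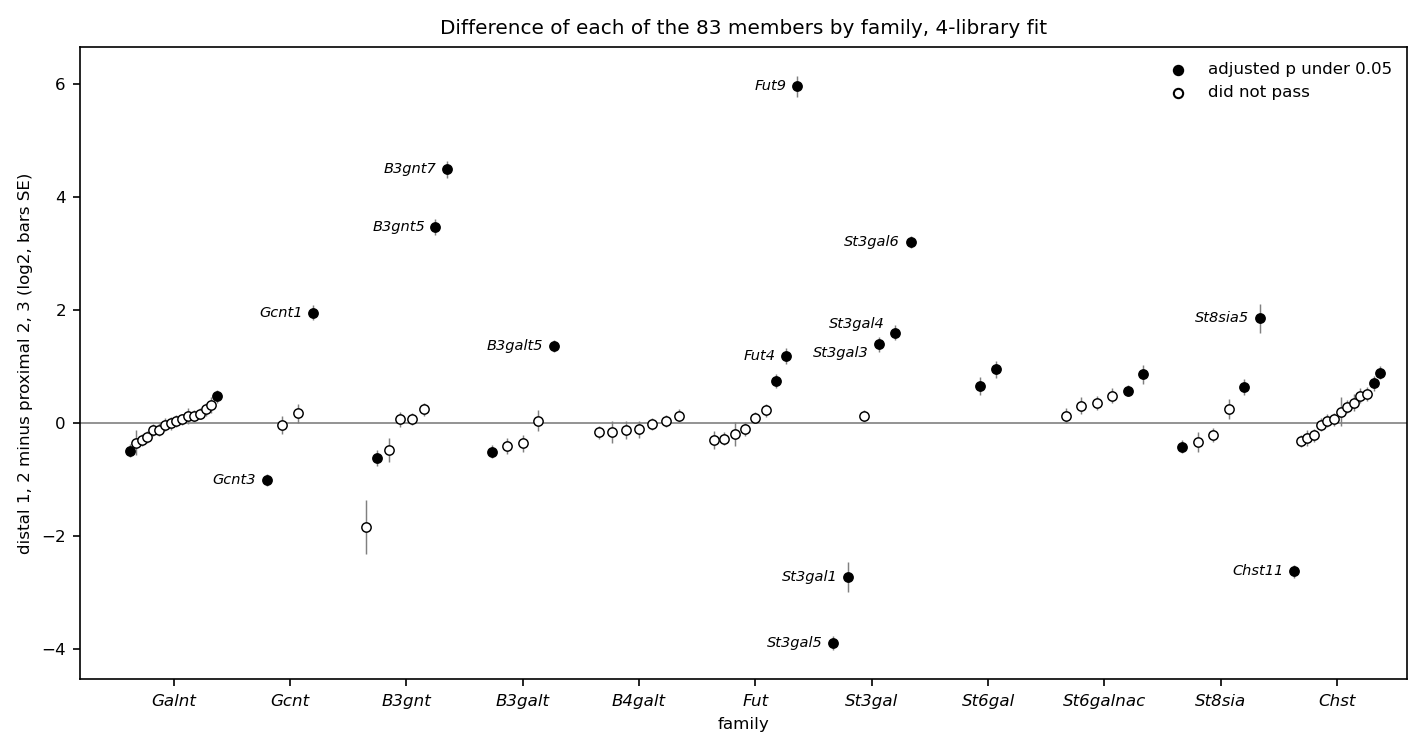
Difference in log2 signal (distal 1 and 2 minus proximal 2 and 3) of each of the 83 genes, grouped by family along the horizontal axis. Filled points passed limma at an adjusted p of 0.05, open points did not, and bars are standard errors. The B4galt points lie between -0.17 and 0.13, while the St3gal points run from -3.90 to 3.20.

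Of the 16 Galnt enzymes, which start mucin chains, 2 passed, where 19.2% of all genes did. Galnt5 was higher in distal libraries (0.47, SE 0.11, limma adjusted p = 0.0451), Galnt3 was lower (-0.49, SE 0.11, limma adjusted p = 0.0372), and 14 did not pass. Of the other Galnt3 probe sets 1 passed as lower too (-0.85) and 1 did not pass (0.14). Galnt7, the family member with the highest signal on its probe set, read 12.98 and 13.02 in proximal 2 and 3, 13.16 in both distal 1 and distal 2, 13.29 in proximal 1 and 12.99 in distal 3. Galnt7 thus ran from 12.98 to 13.29 over all 6 libraries, with no order by label. The genes that did not pass (Galnt1, Galnt2, Galnt4, Galnt6, Galnt7, Galnt9, Galnt10, Galnt11, Galnt12, Galnt13, Galnt14, Galnt15, Galnt16 and Galnt18) had differences between -0.35 and 0.31. Some of them have further probe sets that did pass when each probe set was tested on its own, namely Galnt1 (-0.72) and Galnt4 (-1.13). Of the 167 probe sets of the 83 genes 57 passed in that test (34.1%), against 21.6% of all 34945 probe sets that name 1 gene. For Galnt5 the values were 8.99 and 9.05 in proximal 2 and 3 and 9.41 and 9.56 in distal 1 and 2, but proximal 1, at 10.05, was above all others.

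Branching enzymes ran in opposite directions. Gcnt1 encodes a core 2 enzyme, which adds the N-acetylglucosamine branch to the core 1 chain. It measured 10.44 and 10.53 in proximal 2 and 3 and 12.56 and 12.32 in distal 1 and 2, with 12.11 in proximal 1 and 10.17 in distal 3. The difference was 1.95 (SE 0.13, limma adjusted p = 0.00133), and its other probe set gave 1.75. Gcnt3, the mucin-type enzyme that makes core 2 and core 4 branches, was lower in distal libraries. Its brightest probe set read 13.94 and 13.84 in proximal 2 and 3 against 12.91 and 12.85 in distal 1 and 2, 13.13 in proximal 1 and 13.94 in distal 3, a difference of -1.01 (SE 0.11, limma adjusted p = 0.00486). The dimmer probe sets of Gcnt3 differed by more, -2.90 (SE 0.12) and -3.23 (SE 0.11). One of them fell from 10.38 and 10.43 in proximal 2 and 3 to 7.16 and 7.20 in distal 1 and 2. The size of the Gcnt3 difference thus depends on the probe set by more than 2 log2 units, while its direction does not, and whether the bright probe set is near the top of its range was not tested. Gcnt2, which makes I branches, and Gcnt7 did not pass, with differences of 0.17 and -0.03. Of the 8 probe sets of Gcnt2, 1 passed on its own (-0.55).

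**Figure D2:**
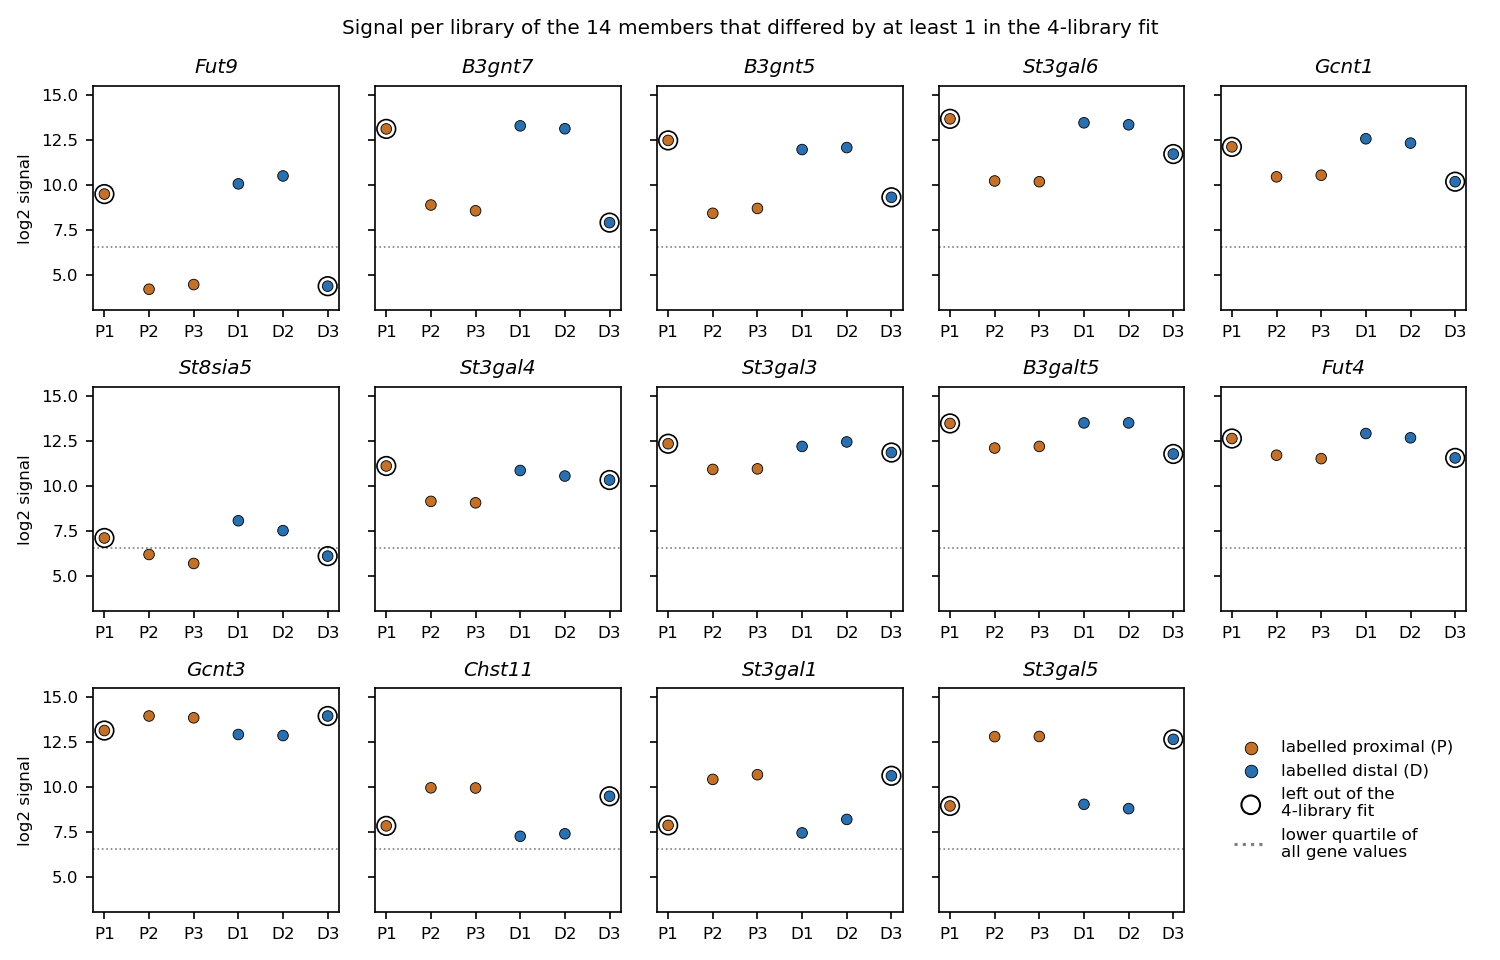
Log2 signal in each library (P1 to P3 labelled proximal, D1 to D3 labelled distal) for the 14 genes with a difference of at least 1. Ringed points are the libraries left out of the 4-library fit, and the dotted line is the lower quartile of all gene values, 6.54. In Fut9 the P2, P3 and D3 values lie under that line and the P1, D1 and D2 values lie above it.

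Among the chain-extending enzymes, B3gnt7 and B3gnt5 had large differences of the same sign, exceeded only by Fut9 among the genes higher in distal libraries. B3gnt7 encodes an N-acetylglucosaminyltransferase that lengthens sulfated lactosamine chains. It read 8.87 and 8.55 in proximal 2 and 3 against 13.28 and 13.12 in distal 1 and 2, 13.11 in proximal 1 and 7.89 in distal 3. The libraries thus form a high and a low trio that do not follow the labels. The difference in the 4 libraries was 4.49 (SE 0.15, limma adjusted p = 0.000223), a 22.5-fold change in signal. With all 6 as labelled, the distal mean of B3gnt7 was 11.43 ± 3.07 (SD, n = 3) and the proximal mean 10.18 ± 2.55 (SD, n = 3). They differed by 1.25 (SE 1.83, limma adjusted p = 0.859). That difference is smaller than the spread between replicates.

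B3gnt5 opens the lacto and neolacto glycolipids by adding N-acetylglucosamine to lactosylceramide. Its signal was 8.41 and 8.68 in proximal 2 and 3 against 11.96 and 12.07 in distal 1 and 2, 12.47 in proximal 1 and 9.30 in distal 3. The difference was 3.47 (SE 0.14, limma adjusted p = 0.000317), and the other probe set gave 3.39. As labelled the difference was 1.26 (SE 1.27, limma adjusted p = 0.830). B3gnt6, the core 3 synthase of colonic mucins, went the other way without passing (-1.85, SE 0.48, limma adjusted p = 0.0543), although it did pass when each of the 34945 probe sets that name 1 gene was tested (limma adjusted p = 0.0456). For this gene proximal 2 and 3 were alike at 9.43 and 9.58, while distal 1 and 2 stood apart at 6.89 and 8.43; proximal 1 read 7.49 and distal 3 read 9.35. B3gnt3, which extends core 1 chains, was lower in distal libraries (-0.62, SE 0.14, limma adjusted p = 0.0347). B3gnt2, the main enzyme of polylactosamine, read 12.78 and 12.79 in proximal 2 and 3 against 12.60 and 12.01 in distal 1 and 2, 12.28 in proximal 1 and 12.70 in distal 3. It did not pass (-0.48) on that probe set but did on its dimmer one (-0.85). B3gnt4, B3gnt8 and B3gnt9 had differences from 0.06 to 0.24, so the B3gnt family of 8 held 2 higher genes, 1 lower gene and 5 that did not pass.

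Of the 5 B3galt genes 1 was higher, 1 was lower and 3 did not pass. B3galt5, which makes the type 1 chains typical of gut epithelium, measured 12.10 and 12.19 in proximal 2 and 3, 13.50 in both distal 1 and distal 2, 13.47 in proximal 1 and 11.77 in distal 3. It was higher in distal libraries by 1.36 (SE 0.11, limma adjusted p = 0.00214), and its other 3 probe sets gave 1.18, 1.25 and 0.97. B3galt4, an enzyme of the ganglioside series, was lower (-0.51, SE 0.11, limma adjusted p = 0.0360). B3galt1, B3galt2 and B3galt6 did not pass, with differences from -0.41 to 0.04, although the dimmer probe sets of B3galt2, with signals under 6.54, passed on their own (-0.71 and -0.63). Of the 7 B4galt genes, which make lactosamine and lactosylceramide, 0 passed. B4galt5 measured 13.35 and 13.36 in proximal 2 and 3 against 13.45 and 13.33 in distal 1 and 2, 13.27 in proximal 1 and 13.13 in distal 3. B4galt1, B4galt2, B4galt3, B4galt4, B4galt6 and B4galt7 differed by -0.17 to 0.13, but 1 of the 4 probe sets of B4galt6 passed on its own (-1.01).

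Fut9 had the largest difference of the 83 genes. It encodes an α1,3-fucosyltransferase that makes the Lewis x end. Its signal was 4.18 and 4.44 in proximal 2 and 3 against 10.05 and 10.49 in distal 1 and 2, 9.48 in proximal 1 and 4.35 in distal 3. The difference was 5.96 (SE 0.19, limma adjusted p = 0.000195), a 62.2-fold change in signal. The low trio lies under 6.54, the lower quartile over the array, a range in which signal need not track RNA, so the fold may be an understatement. The other Fut9 probe sets gave 3.60 and 2.72. As labelled, the Fut9 mean was 8.30 ± 3.42 (SD, n = 3) for distal colon and 6.03 ± 2.99 (SD, n = 3) for proximal colon. Their difference of 2.26 (SE 2.09, limma adjusted p = 0.824) is within the spread between replicates.

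Fut4, which also adds α1,3-linked fucose, moved in the same direction. It measured 11.70 and 11.51 in proximal 2 and 3 against 12.91 and 12.67 in distal 1 and 2, 12.63 in proximal 1 and 11.55 in distal 3, a difference of 1.19 (SE 0.14, limma adjusted p = 0.00614). Its dimmer probe set gave 0.49 and did not pass. Fut8, the core fucosyltransferase of N-glycans, was higher by 0.74 (SE 0.12, limma adjusted p = 0.0151), with 2.04 and 0.06 on its other probe sets. Fut2, which adds the α1,2-linked fucose of blood group H, did not pass on its bright probe set (0.09, limma adjusted p = 0.594). Its values there were 12.42 and 12.39 in proximal 2 and 3 against 12.48 and 12.51 in distal 1 and 2, 12.60 in proximal 1 and 12.66 in distal 3. The other Fut2 probe set passed as lower in distal libraries (-0.85). Fut1, Fut7, Fut10, Fut11 and Fut4-ps1 did not pass, with differences from -0.31 to 0.22, so 3 of the 9 Fut genes were higher and 0 lower.

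The 6 St3gal enzymes, which add sialic acid in α2,3 linkage, gave the widest range of differences among the 11 families. In distal libraries 3 of them were higher and 2 lower, and 1 missed the threshold. St3gal6, which acts on lactosamine ends, read 10.21 and 10.17 in proximal 2 and 3 against 13.45 and 13.34 in distal 1 and 2, 13.67 in proximal 1 and 11.71 in distal 3. The difference was 3.20 (SE 0.11, limma adjusted p = 0.000224). Of its other 4 probe sets, 3.22 and 3.65 passed, while 0.64 and 0.04 did not. As labelled the St3gal6 difference was 1.48 (SE 1.03, limma adjusted p = 0.824).

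St3gal4, which also acts on galactose ends, measured 9.13 and 9.05 in proximal 2 and 3 against 10.85 and 10.54 in distal 1 and 2, 11.10 in proximal 1 and 10.32 in distal 3. St3gal3, which favours type 1 chains, measured 10.91 and 10.94 in proximal 2 and 3 against 12.19 and 12.44 in distal 1 and 2, 12.34 in proximal 1 and 11.85 in distal 3. Their differences were 1.60 (SE 0.14, limma adjusted p = 0.00291) and 1.39 (SE 0.13, limma adjusted p = 0.00324). In both genes distal 3 lay nearer to distal 1 and 2 than to proximal 2 and 3, unlike most genes of the set.

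St3gal5, the GM3 synthase that opens the ganglioside series, had the largest decrease. It read 12.79 and 12.80 in proximal 2 and 3 against 9.02 and 8.78 in distal 1 and 2, 8.93 in proximal 1 and 12.64 in distal 3. The difference was -3.90 (SE 0.13, limma adjusted p = 0.000209), a 14.9-fold change, and the other probe set gave -3.70. As labelled it was -1.36 (SE 1.43, limma adjusted p = 0.832). St3gal1, which caps the core 1 chain of mucins and T cell glycoproteins, measured 10.41 and 10.67 in proximal 2 and 3 against 7.43 and 8.18 in distal 1 and 2, 7.85 in proximal 1 and 10.61 in distal 3. The difference was -2.73 (SE 0.26, limma adjusted p = 0.00360), with -0.93 on its other probe set. St3gal2 did not pass (0.12).

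**Figure D3:**
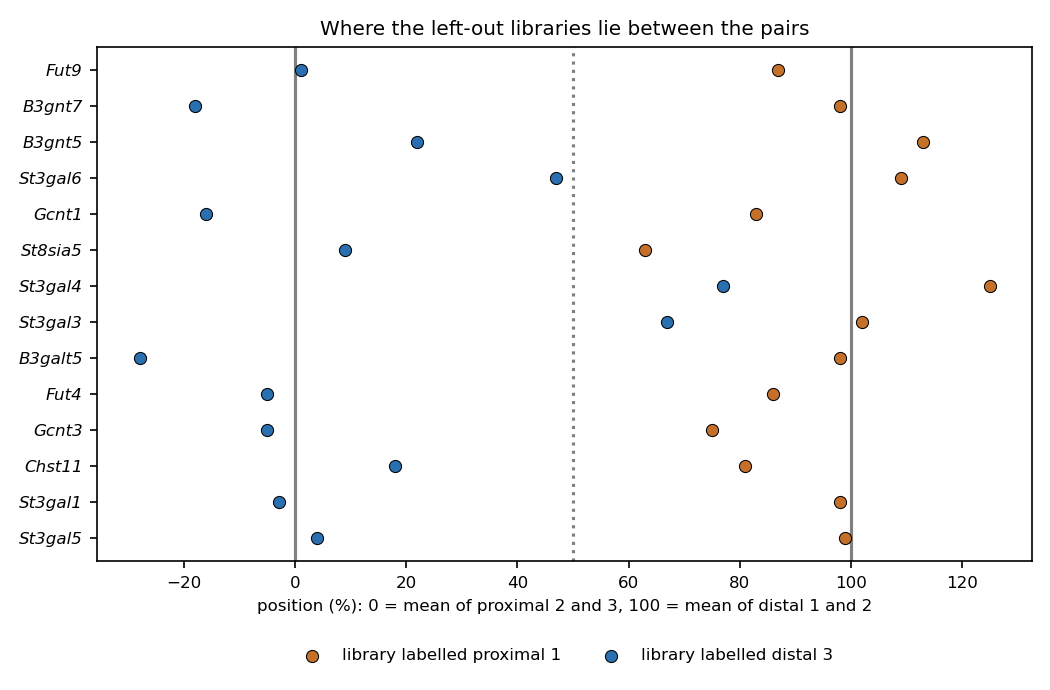
Position of the libraries labelled proximal 1 and distal 3 for the 14 genes with a difference of at least 1, as a percentage of the way from the mean of proximal 2 and 3 (0%) to the mean of distal 1 and 2 (100%). Proximal 1 lies between 63% and 125% in every one of them, whereas distal 3 is near 0% in most but reaches 47%, 67% and 77% in St3gal6, St3gal3 and St3gal4.

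For the 14 genes with a difference of at least 1, proximal 1 lay nearer to the distal pair in 14 and distal 3 nearer to the proximal pair in 12. The exceptions for distal 3 were St3gal3, at 67% of the way from the proximal to the distal pair, and St3gal4, at 77%; St3gal6 followed at 47%. Over all 27 genes that passed, proximal 1 was nearer to the distal pair in 23 (85.2%, against 75.6% of all 3494 genes that passed), and distal 3 nearer to the proximal pair in 23 (85.2%, against 90.1%). Since both libraries were left out for their overall profiles, these positions are a description and no test.

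The 14 enzymes that add sialic acid in other linkages held 6 higher genes, 1 lower gene and 7 that did not pass. St6gal1, which adds α2,6-linked sialic acid to N-glycans, differed by 0.95 (SE 0.15, limma adjusted p = 0.0149), and its other probe set (0.23) did not pass. It read 10.93 and 10.87 in proximal 2 and 3 against 12.03 and 11.67 in distal 1 and 2, 11.56 in proximal 1 and 11.06 in distal 3. St6gal1 is also a B cell gene, and the B cell markers Ms4a1 (2.18), Cd79b (1.65) and Cd79a (1.46) were higher in the same libraries, while Mzb1 (0.37) and Jchain (-0.08) did not pass. The 5 measured B and plasma cell markers averaged 8.93 and 9.02 in proximal 2 and 3 against 10.14 and 10.04 in distal 1 and 2, 10.20 in proximal 1 and 8.39 in distal 3. Their part in the St6gal1 result was not tested. St6gal2 passed as well (0.66, limma adjusted p = 0.0430), with all 6 values under 6.54.

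Of the 6 St6galnac genes, St6galnac4 (0.86, SE 0.17, limma adjusted p = 0.0257) and St6galnac6 (0.57, SE 0.10, limma adjusted p = 0.0209) were higher and 4 did not pass. St6galnac6, which can sialylate gangliosides and type 1 chains, read 13.65 and 13.60 in proximal 2 and 3 against 14.19 and 14.20 in distal 1 and 2, 14.14 in proximal 1 and 13.81 in distal 3. St6galnac1, the sialyl-Tn synthase, and St6galnac2, St6galnac3 and St6galnac5 had differences between 0.13 and 0.48. The probe sets of St6galnac3 disagreed, since 1 of its dimmer ones passed as lower in distal libraries.

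Of the 6 St8sia enzymes, which place a further sialic acid on an existing one, 2 were higher, 1 was lower and 3 did not pass. St8sia5, a ganglioside enzyme best known from nervous tissue, measured 6.17 and 5.67 in proximal 2 and 3 against 8.05 and 7.50 in distal 1 and 2, 7.09 in proximal 1 and 6.08 in distal 3, a difference of 1.85 (SE 0.25, limma adjusted p = 0.00918). Its low trio lies under 6.54, as in Fut9, so the size is uncertain. Neuronal markers averaged 9.44 and 9.15 in proximal 2 and 3 and 9.66 and 9.76 in distal 1 and 2, and 1 of 5, Snap25, was higher (1.14). Whether they bear on St8sia5 was not tested. St8sia1, the GD3 synthase, was higher (0.63, limma adjusted p = 0.0355) on 1 of 3 probe sets. St8sia4, a polysialyltransferase found in leukocytes, was lower (-0.42, limma adjusted p = 0.0492), with 10.58 and 10.65 in proximal 2 and 3 against 10.15 and 10.23 in distal 1 and 2, 10.92 in proximal 1 and 10.67 in distal 3. St8sia2, St8sia3 and St8sia6 did not pass, at -0.21, 0.24 and -0.34.

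Among 14 Chst sulfotransferases 2 were higher, 1 was lower and 11 did not pass, where 19.2% of all genes passed. Chst11, a chondroitin 4-sulfotransferase, measured 9.94 and 9.93 in proximal 2 and 3 against 7.24 and 7.38 in distal 1 and 2, 7.82 in proximal 1 and 9.47 in distal 3. The difference was -2.63 (SE 0.11, limma adjusted p = 0.000373), and -1.17 on its other probe set; as labelled it was -1.20 (SE 0.81, limma adjusted p = 0.824). Chst15, which adds a second sulfate to chondroitin, was higher by 0.89 (SE 0.11, limma adjusted p = 0.00770) on both of its probe sets. Chst10, of the HNK-1 epitope, was higher by 0.70 (limma adjusted p = 0.0242) with all values under 6.54.

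Chst4, which sulfates N-acetylglucosamine on mucin chains, read 10.92 and 10.95 in proximal 2 and 3 against 11.29 and 11.54 in distal 1 and 2, 11.92 in proximal 1 and 11.19 in distal 3, and did not pass (0.48, limma adjusted p = 0.0563). Chst5, its close relative, missed the threshold too (0.51, limma adjusted p = 0.0518) but passed in the test over single probe sets (limma adjusted p = 0.0492), on signals under 6.54 in 5 of 6 libraries. Chst1, Chst2, Chst3, Chst7, Chst8, Chst9, Chst12, Chst13 and Chst14 had differences from -0.32 to 0.36. Of these, Chst3, Chst7 and Chst9 had all values under 6.54, so their small differences need not mean equal RNA.

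Some T cell and macrophage markers were lower in distal libraries, while 3 of 5 B and plasma cell markers were higher, as given above. Among all genes 19.2% passed, 7.71% as higher and 11.5% as lower. Of 4 measured T cell markers 3 were lower in distal libraries, namely Cd3g (-2.39), Cd3d (-1.57) and Cd3e (-1.33), and 1, Cd2, did not pass. The 4 averaged 9.33 and 9.60 in proximal 2 and 3 against 8.12 and 8.24 in distal 1 and 2, 8.59 in proximal 1 and 9.29 in distal 3. Of 5 macrophage markers 3 were also lower, with C1qa at -1.40, while Csf1r (-0.35) and C1qb (-0.38) did not pass. St3gal1, Chst11 and St8sia4 are known to be active in leukocytes. St8sia4 was highest in proximal 1 (10.92), where T cell markers averaged 8.59, macrophage markers 10.03 and B and plasma cell markers 10.20. The macrophage markers averaged 10.07 and 10.47 in proximal 2 and 3 against 9.60 and 9.37 in distal 1 and 2, and 10.12 in distal 3. The part of leukocytes in the decrease of St3gal1, Chst11 and St8sia4 was not tested. Of 10 goblet cell markers 4 were higher, Rep15 (1.52), Creb3l1 (0.99), Bcas1 (0.82) and Clca1 (0.62), and 6 did not pass. Those 6 were Fcgbp (0.40), Muc2 (0.10), Agr2 (0.03), Zg16 (-0.01), Tff3 (-0.03) and Spdef (-0.32). Of 8 epithelial markers, Cdx2 was lower (-0.88) and the other 7 did not pass. Absorptive colonocyte markers moved both ways: of 7, Aqp8 (-0.72), Car1 (-0.54) and Krt20 (-0.49) were lower, Car4 (0.60) was higher and 3 did not pass. The part of goblet cells and colonocytes in the differences of the sugar chain genes was not tested.

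Since distal 1 is the library of the 4 with high pancreatic acinar genes, the fit was repeated without it, with distal 2 alone assumed to vary like the proximal pair. The difference was then 6.18 for Fut9, 4.41 for B3gnt7, 3.52 for B3gnt5, 3.15 for St3gal6, -4.01 for St3gal5 and -2.56 for Chst11. These 6 genes passed whichever of the 4 libraries was left out, with limma adjusted p up to 0.0491. The other 21 lost their call in at least 1 of those fits, and 11 of them in all 4. Among those 11 are Fut4 (1.06 without distal 1, limma adjusted p = 0.0524) and St8sia5 (1.58, limma adjusted p = 0.0736).

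**Figure D4:**
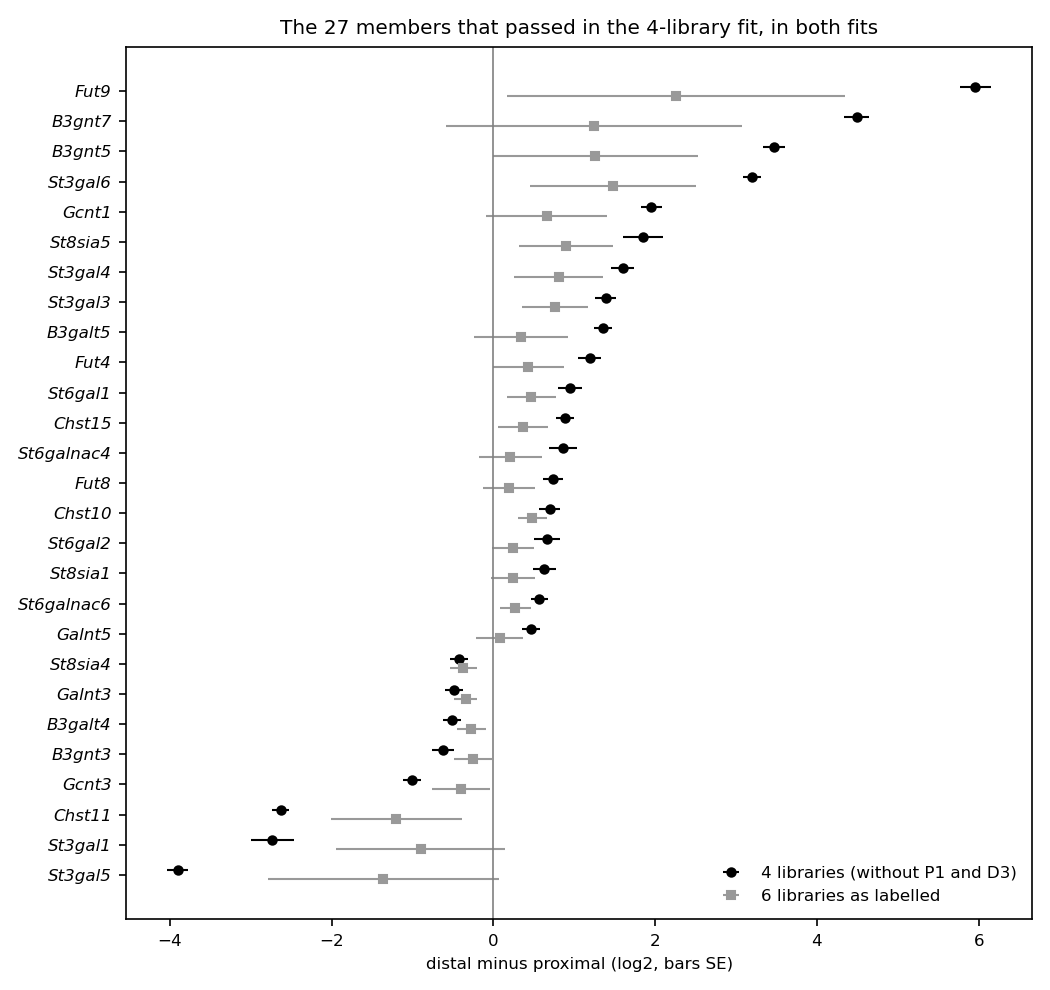
Difference in log2 signal, distal minus proximal, with standard errors, for the 27 genes that passed in the 4-library fit (black circles), beside the same genes in the fit of all 6 libraries as labelled (grey squares). Every gene keeps its sign, and for Fut9 the difference goes from 5.96 (SE 0.19) to 2.26 (SE 2.09).

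**Figure D5:**
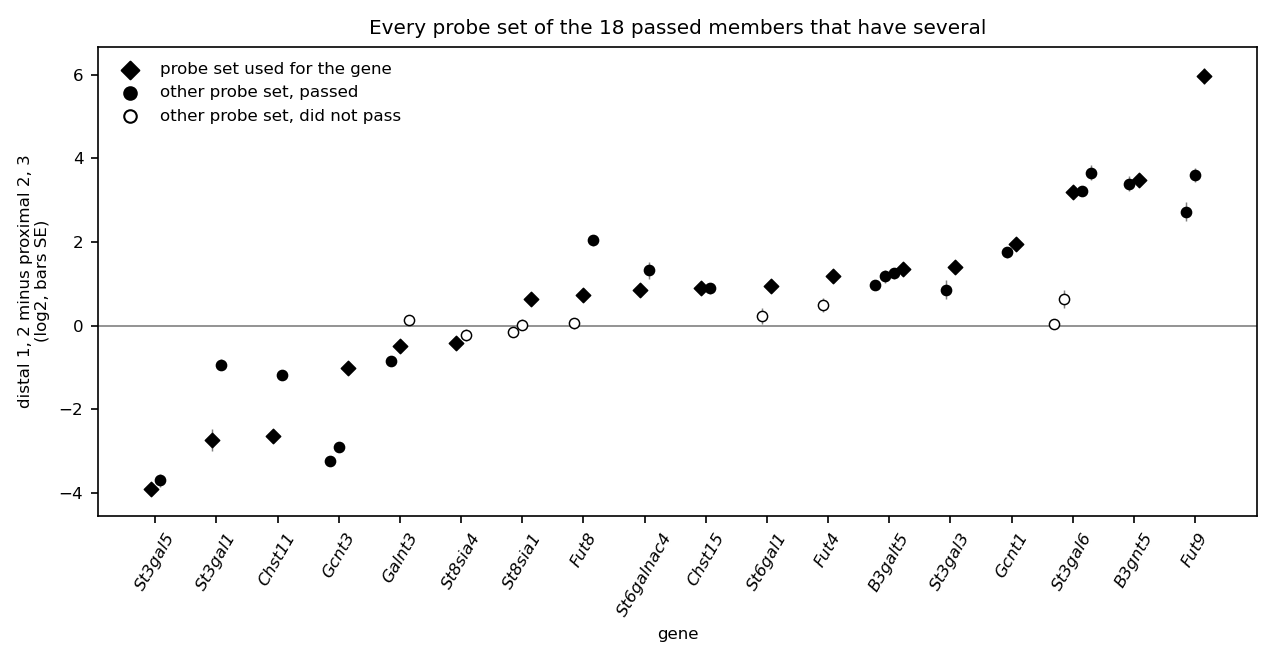
Difference in log2 signal (distal 1 and 2 minus proximal 2 and 3, bars SE) for every probe set of the 18 passed genes that have more than 1. Diamonds are the probe sets used for the genes, and for 16 of the 18 genes all probe sets share a direction, with Galnt3 and St8sia1 as the exceptions.

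The rest of the pathway was read from 3 further lists. As labelled, 0 genes of these lists passed. Without proximal 1 and distal 3, 19.2% of all genes passed, 7.71% as higher and 11.5% as lower. Of 29 measured genes that supply nucleotide sugars and sulfate, 2 were higher on the distal side and 6 lower, while 21 did not pass, with a median difference of -0.12 against -0.045 over all genes. Both higher genes make sialic acid: Gne, its rate-limiting enzyme (0.97, SE 0.12, limma adjusted p = 0.00641), and Nans (0.67). Nans is an exception to the limit of 4 genes per list. Cmas (0.33), Slc35a1 (0.21) and Nanp (-0.25), which also serve sialic acid supply, did not pass. Gne measured 11.78 and 11.93 in proximal 2 and 3 against 12.87 and 12.78 in distal 1 and 2, 12.73 in proximal 1 and 12.08 in distal 3. Among the lower ones were the nucleotide sugar transporters Slc35d1 (-1.83, SE 0.13, limma adjusted p = 0.00171) and Slc35d2 (-1.06), and Papss2, which makes the sulfate donor (-0.89).

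Of 21 other enzymes of mucin and glycolipid chains 9 were lower, where 11.5% of all genes were. Of the rest 1 was higher and 11 did not pass, and the median of the list was -0.38. Ugt8a, which makes galactosylceramide, had the largest difference of that list (-6.46, SE 0.13, limma adjusted p = 9.86e-05). It read 10.66 and 10.76 in proximal 2 and 3 against 4.37 and 4.13 in distal 1 and 2, 4.65 in proximal 1 and 9.52 in distal 3. The values in proximal 1, distal 1 and distal 2 lie under 6.54, so the size of that difference is uncertain. As labelled the Ugt8a difference was -2.68 (SE 2.13, limma adjusted p = 0.824). Without proximal 1 and distal 3, Gal3st2c, a galactose sulfotransferase, differed by -2.44 and B4galnt4 by -1.20. Abo, the blood group A and B transferase, was the one that was higher (1.37, SE 0.14, limma adjusted p = 0.00451). B4galnt1, singled out after its values were seen because it acts on the product of St3gal5 in the ganglioside series, was lower as well (-1.91, limma adjusted p = 0.0143).

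Of 11 measured mucins and mucin-like genes 3 passed, where 19.2% of all genes did. Muc1, a membrane mucin, was higher in distal libraries (2.46, SE 0.13, limma adjusted p = 0.000626), with 7.33 and 7.57 in proximal 2 and 3 against 9.94 and 9.88 in distal 1 and 2, 9.87 in proximal 1 and 7.29 in distal 3. Muc16 was lower (-4.66, SE 0.11, limma adjusted p = 0.000109). It read 9.56 and 9.54 in proximal 2 and 3 against 4.83 and 4.95 in distal 1 and 2, 4.81 in proximal 1 and 10.62 in distal 3. The values in proximal 1, distal 1 and distal 2 lie under 6.54, so the size of that difference is uncertain. The endothelial sialomucin Emcn was lower as well (-0.65). The other 8 did not pass. As labelled the differences were 0.78 for Muc1 (SE 0.95, limma adjusted p = 0.847) and -1.17 for Muc16 (SE 1.97, limma adjusted p = 0.876). Muc2, the secreted mucin that carries most of these chains and was also singled out afterwards, had a difference of 0.10 (SE 0.17, limma adjusted p = 0.735), with values between 13.94 and 14.40.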

How the data were processed

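The 6 libraries were measured on single-colour arrays. Per the labels' protocols RNA was amplified with NuGEN kits and labelled with biotin. The deposited values were made by the authors with RMA in Partek 6.5, per the submitters' processing notes, and are read as log2 signal per probe set from that note and their range of 2.91 to 15.16. Detection calls were not used here.

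Of 45101 probe sets, 64 were controls, 34945 name 1 gene, 932 name several and 9160 name none. Symbols were updated by gene identifier from a RefSeq table (GRCm38.p6) for 34741, and each of 18193 genes took its brightest probe set by mean over all arrays. limma 3.58.1 in R 4.3.3 (lmFit, eBayes) compared distal with proximal over all genes, two-sided, with Benjamini-Hochberg adjustment and a threshold of 0.05. Nothing says which numbers share an animal, so the main fits had no block for animal. They treated the libraries as independent, although the same animals supplied both regions. The p-values thus set a difference against the spread between libraries of a label and leave that sharing out of account. The number of arrays limits the precision. The calculation was tested on simulated data.

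Values in every library are given for genes that passed with a difference of at least 1 and for the gene with the highest signal in each family; further lists give up to 4 genes by adjusted p, and exceptions are named as such. The genes, lists, the fit without proximal 1 and distal 3 and the alternatives were chosen with earlier results of these data known. A planned ranking of genes by correlation over the 6 libraries is left out, because the libraries form separate clusters. The alternatives were a replicate block, leaving out libraries, quantile normalization, median centring, a filter at the median gene mean of 9.31, the mean of all probe sets, each probe set on its own, a trended and robust prior, array weights and a threshold of 0.01.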

Additional observations from a re-analysis of the deposited data

How the results depend on the processing

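With all 6 libraries, limma called 0 genes overall and 0 of the 83 at an adjusted p of 0.05 in each alternative except these. Leaving out proximal 1 and distal 3 gave 3494 and 27, and array weights gave 5579 and 35, with weights of 0.291 for distal 3, 0.322 for proximal 1, 0.403 for distal 2, 1.57 for proximal 3, 2.5 for distal 1 and 6.72 for proximal 2. The library labelled distal 2, kept among the 4, thus weighed nearly as little as the pair left out. With a replicate block the counts were 0 and 0. The numbers were not taken to pair the samples, because nothing says which numbers share an animal. Deviations of same-numbered libraries from the mean of their label correlated at 0.68, -0.45 and 0.68. Proximal 1 and distal 3, which went against their labels, enter those means (r = -0.77 between their deviations). These r values therefore cannot show which samples share an animal. In the 4 libraries no paired analysis was possible because their labels share only number 2.

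In the fit of 4 libraries, leaving out 1 gave 146 to 1633 genes overall and 6 to 17 of the 83. The count of the 83 was 6 when proximal 2 or proximal 3 was dropped, 17 when distal 1 was and 11 when distal 2 was. Each such fit takes the single remaining library to vary as the other pair does. A threshold of 0.01 gave 1112 and 15. Testing each probe set gave 5381 genes with at least 1 call, and 37 of the 83. Scaling turned the split of all genes from 1402 higher and 2092 lower to 1737 and 1718 (quantile) or 1883 and 1557 (median centring). Both scalings ended the calls of B3galt4, B3gnt3, Galnt3 and St8sia4, and the mean of all probe sets ended those of St6gal1, St8sia1 and St8sia4. In the alternatives to the fit of 4 libraries, no difference of the 27 genes changed sign. A threshold of 0.01 and the test of each probe set reuse the same estimate, so they could not change a sign. The same holds for the filter at the median gene mean and for the trended and robust prior. Median centring shifts every gene by the same amount, too little to change a sign. The smallest difference of the 27, that of St8sia4, went from -0.425 to -0.335. Leaving out 1 library could not change a sign either, because the pairs of these genes do not overlap. Other probe sets of Galnt3 (0.14) and St8sia1 (-0.16) had the opposite sign.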

Other observations

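Some sulfotransferases stood out in proximal 1 alone. Chst13, a chondroitin 4-sulfotransferase, read 8.28 there and 6.21 to 6.93 in the other 5 libraries. Chst5 read 6.87 in proximal 1 and 5.10 to 5.80 elsewhere. Pancreatic acinar genes were high in proximal 1 and also in distal 1, where Chst13 read 6.62 and Chst5 5.59. The contribution of other tissue to these values was not tested.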
